A study of Mus musculus with 62 samples.

Results

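Liver RNA of male mice lacking *Fam13a* was compared with liver RNA of wild-type (WT) males, all on a high-fat diet (HFD). The libraries were chosen by their labels, as every library with tissue liver and diet HFD, which gave 8 of the 62 libraries in the series: 4 from knockout (KO) and 4 from WT males. The series also holds adipose tissue and liver of mice on chow. Liver of males on chow, with 4 KO and 4 WT libraries, served as the only comparison. The KO removes *Fam13a* from the whole body, not from the liver alone. It was made from targeted embryonic stem cells with a floxed exon and kept on a C57BL/6 background. Per the study, the diet ran for 14 weeks, from 8 to 22 weeks of age. The labels do not say which libraries came from which mice, so the p-values measure the spread between libraries. The labels number no replicates, and libraries are called KO 1 to KO 4 and WT 1 to WT 4 in the order of deposit.

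FAM13A is a protein with a GTPase-activating domain, and its gene lies in a locus linked to body fat distribution and insulin resistance. The liver makes cholesterol from acetyl-CoA through the mevalonate pathway, and the transcription factor SREBP2 raises the genes of that pathway when sterols in the cell are low. The liver also clears drugs and hormones through cytochrome P450 and conjugating enzymes. It takes up fatty acids from blood and stores them in lipid droplets.

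KO 3 stood apart from the other 7 libraries. Of its 4959783 counts, 75.4% lay on *CT010467.1*, the gene on which nuclear ribosomal RNA is counted, against 0.0245% to 3.43% elsewhere. Outside all ribosomal RNA it had 1211177 counts, where the other libraries had 20051232 to 28581509. In KO 3, 7549 genes had at least 10 counts, against 14064 to 14427 in the others. Its median correlation with the other libraries, in log2 CPM over 14145 genes, was 0.916, and no other library was below 0.982. CPM are counts scaled to a common library size. The main results are therefore given with all 8 libraries and with the 7 that remain without KO 3. WT 1 was sequenced on lane 8 and had the 3.43%, and the other 7 libraries were on lane 6. *CT010467.1* itself had a log2 fold change of 6.48 (KO over WT, adjusted p = 0.483, edgeR quasi-likelihood test) with all libraries and of -4.88 without KO 3, so no direction is given for it. Hepatocyte markers were abundant in every library, with a summed level of 51850 to 66530 CPM over 12 genes. Of 8 adipocyte markers, 6 (*Adipoq*, *Lep* and *Plin1* among them) and 11 of 12 exocrine pancreas markers had too few counts to be tested. The other adipocyte markers, *Car3* and *Cfd*, were at 1153 to 2050 CPM and 2.74 to 11.9 CPM over the 8 libraries.

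*Fam13a* (ENSMUSG00000037709.13, chromosome 6, 58932090 to 59024549, GRCm38, minus strand) was lower in KO but not absent. It had 17.3, 11.8, 11.1 and 11.6 CPM in KO 1 to KO 4, and 25.7, 24.8, 19.7 and 20.1 CPM in WT 1 to WT 4. Every KO library lay below every WT library. The means were 12.9 ± 2.91 CPM in KO and 22.6 ± 3.11 CPM in WT (SD, n = 4), a log2 fold change of -0.76 ± 0.15 (SE). Its adjusted p of 0.103 in edgeR's quasi-likelihood test just missed the threshold, a false discovery rate (FDR) of 10%, used for every call of a differentially expressed (DE) gene. An exact two-sided permutation test over the 8 libraries gave p = 0.0286, the smallest that 4 against 4 can give. Without KO 3 the log2 fold change was -0.74, with an adjusted p of 0.201. In chow liver it was -0.61 ± 0.22 (SE). The table sums reads over the whole gene, so the level does not measure the removed exon, and transcripts that lack it are counted too.

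With all 8 libraries, 27 of 14145 genes were DE, or 0.191%. Of these, 9 were higher in KO (0.0636% of the genes tested) and 18 lower (0.127%). The genes that fell were led by enzymes and regulators of cholesterol synthesis. Among those that rose were *Sds* of amino acid breakdown, *Plin4* and *Cd36* of lipid storage and uptake, and *Gstm1* and *Cyp3a59* of detoxification. In 25 of the 27 genes, the KO and WT libraries did not overlap. Over all genes tested, 2.76% were higher and 3% lower in KO without overlap. At an unadjusted p under 0.05, 4.58% of genes were higher and 5.71% lower.

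Without KO 3, 12 of 14517 genes were DE, or 0.0827%, with 3 higher (0.0207%) and 9 lower (0.062%). At an unadjusted p under 0.05, 5.39% were then higher and 5.55% lower. All 12 were among the 27, the other 15 no longer passed, and all 27 kept their direction with an unadjusted p under 0.05, the largest adjusted p being 0.194. The number of DE genes turned on single libraries: it was 6 without KO 1, 64 without KO 2, 33 without KO 4, 44 without WT 1, 207 without WT 2, 10 without WT 3 and 12 without WT 4. The direction of the 27 changes was the same in both fits, as the plot shows. The genes were chosen with all libraries, and the other fit reuses all but KO 3, so the shared direction is no separate test.

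**Figure D1:**
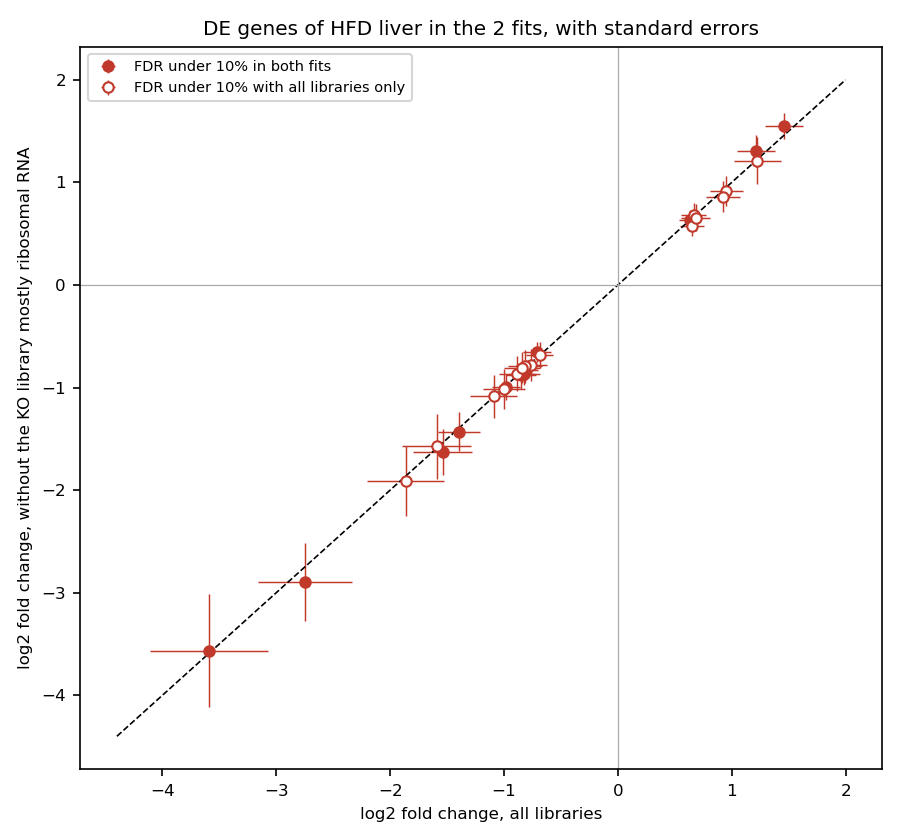
Log2 fold change (KO over WT) of the 27 DE genes of HFD liver, fitted with all libraries (x axis) and without KO 3 (y axis), with standard errors as bars. Points lie near the dashed line of equality, and the 12 filled points passed an FDR of 10% in both fits.

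Cholesterol synthesis and uptake was the group with the most DE genes. Of 27 genes tested, 6 fell, *Stard4*, *Msmo1*, *Cyp51*, *Sqle* and *Idi1* among them, and none rose. Over all genes tested, 0.127% fell. At an unadjusted p under 0.05, 13 were lower and 0 higher, beside 5.71% and 4.58% of all genes. The median log2 fold change over the 27 genes was -0.37, against -0.01 over all genes. Without KO 3, 5 of 27 fell, 11 were lower at an unadjusted p under 0.05, and the median was -0.33. Over the alternative settings, leave-outs included, 2 genes (without KO 1) to 9 genes (without a filter on low counts) of the list fell and the median lay between -0.44 and -0.31.

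In the order of the pathway, *Idi1* encodes the isomerase of the isoprenoid building blocks. It had 0.328, 0.736, 1.39 and 0.623 CPM in KO 1 to KO 4 and 3.17, 1.47, 2.15 and 1.86 CPM in WT 1 to WT 4. All KO libraries were below all WT libraries, by a log2 fold change of -1.86 ± 0.34 (SE, adjusted p = 0.084, edgeR quasi-likelihood test). It did not pass without KO 3 (adjusted p = 0.155), and it passed in 10 of 19 alternative fits. *Fdps*, the next synthase, was at 0.360, 0.460 and 0.343 CPM in KO 1, KO 2 and KO 4, at 2.77 CPM in KO 3, and at 0.942 to 1.43 CPM in WT. It did not pass, with a log2 fold change of -1.34 and an adjusted p of 0.262.

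*Sqle* (ENSMUSG00000022351.14, chromosome 15, 59315077 to 59331192) encodes squalene epoxidase, a rate-limiting enzyme past squalene. Its CPM were 0.491, 0.583, 4.16 and 1.122 in KO 1 to KO 4 and 9.12, 4.18, 4.52 and 4.41 in WT 1 to WT 4. KO 3, with 6 counts behind its value, was just under the lowest WT library. The other KO libraries were far below. The log2 fold change was -2.75 ± 0.41 (SE, adjusted p = 0.0424), and -2.90 without KO 3 (adjusted p = 0.04, edgeR in both). The fit models counts, so a library with few counts weighs little in it, and the fitted fold is larger than the ratio of the means of 1.59 and 5.56 CPM.

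*Cyp51* encodes the lanosterol demethylase and *Msmo1* a methylsterol monooxygenase that acts after it. *Cyp51* had 8.15, 8.49, 12.5 and 9.29 CPM in KO 1 to KO 4 and 31.9, 16.8, 24.1 and 20.9 CPM in WT 1 to WT 4, and *Msmo1* had 17.1, 19.0, 23.6 and 21.7 CPM against 38.2, 32.7, 33.5 and 33.1 CPM. Neither gene's groups overlapped, and KO 3 was the highest KO library for both. *Cyp51* fell by 1.39 ± 0.18 (log2, SE, adjusted p = 0.0192) and *Msmo1* by 0.80 ± 0.10 (adjusted p = 0.0192). Among enzymes that did not pass, *Tm7sf2* had a log2 fold change of -0.50, *Hsd17b7* of -0.37 and *Dhcr7* of -0.50, with adjusted p-values of 0.296, 0.413 and 0.299.

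*Stard4*, a carrier of sterols between membranes, had 20.9, 23.9, 25.7 and 25.1 CPM in KO 1 to KO 4 and 45.0, 36.8, 52.9 and 51.4 CPM in WT 1 to WT 4. KO 3 did not stand out for it. The log2 fold change was -0.98 ± 0.12 (SE, adjusted p = 0.0185). Of the 27 DE genes, it was the only one that passed in each of the 20 alternative fits run for it (largest adjusted p = 0.0706).

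Other members did not pass. *Hmgcs1*, an early synthase of the mevalonate pathway, had 50.01 to 68.7 CPM in KO and 57.01 to 117 CPM in WT, with WT 1 highest. *Srebf2*, which encodes SREBP2, had 12.9, 11.4, 13.9 and 13.1 CPM in KO and 23.9, 17.7, 15.2 and 18.1 CPM in WT. Its groups did not overlap, and its log2 fold change was -0.57 ± 0.13 (SE, adjusted p = 0.167).

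**Figure D2:**
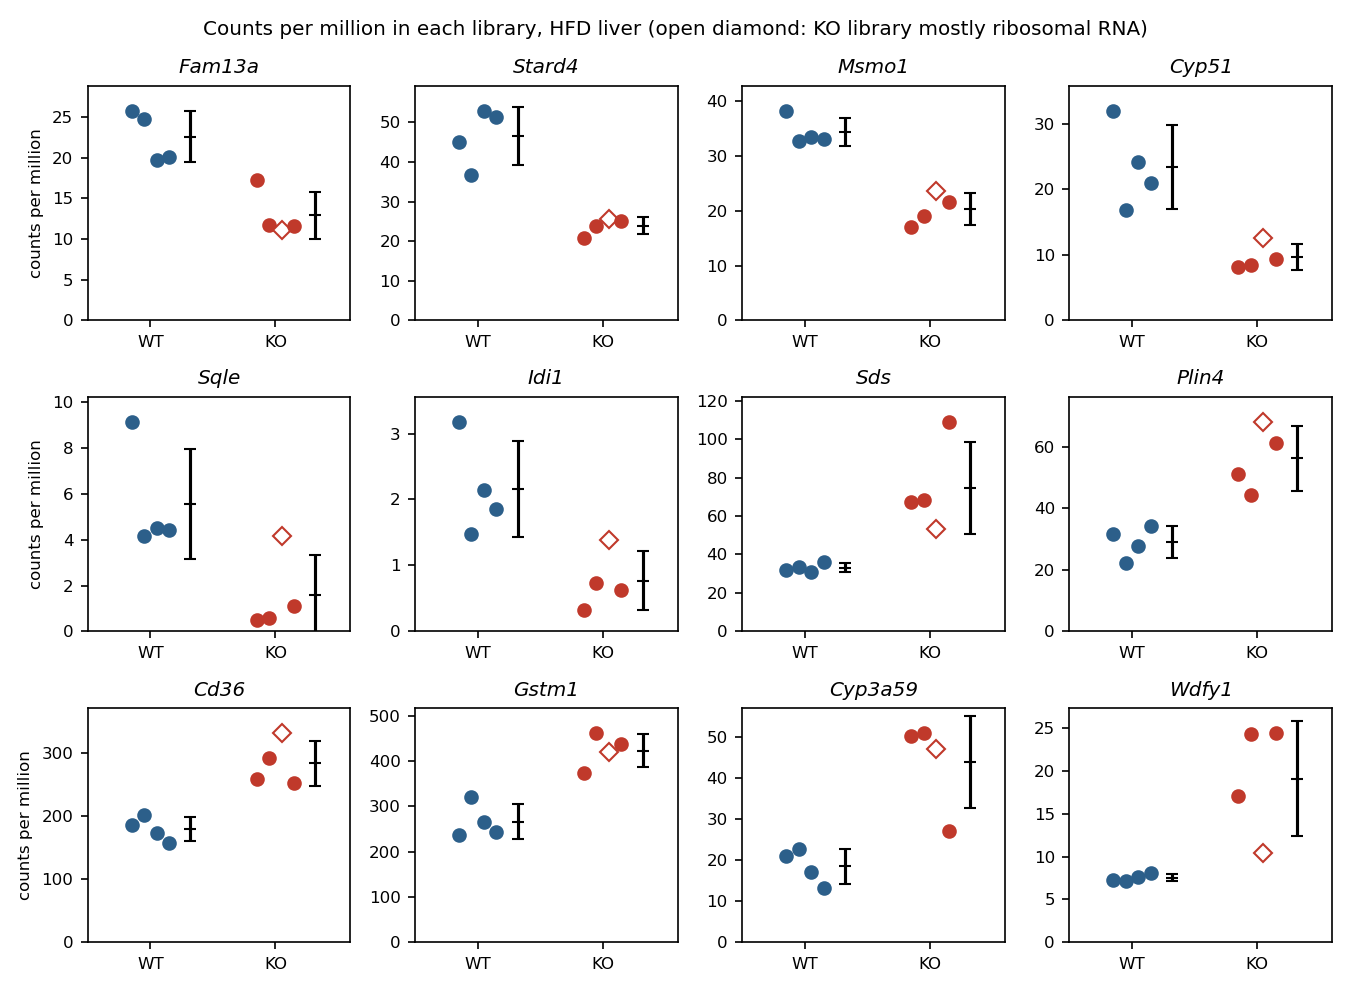
CPM (y axis, from 0) of *Fam13a* and 11 DE genes in each of the 4 WT (blue) and 4 KO (red) liver libraries on HFD, with the mean and SD beside the points. The open diamond is KO 3, which lies with the other KO libraries for *Stard4* and near the lowest WT library for *Sqle*.

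SREBP2 binds sterol regulatory elements, often beside CCAAT boxes bound by NF-Y. Promoter windows from RefSeq (GRCm38.p6, 250 bases before to 50 after a transcription start) were at hand for 19 of the 27 tested genes. The letters TCACNCNA, chosen to take in known sterol elements, stood on either strand in 4 of 19, or 21.1%, against 12.5% of all 27025 genes with a window. CCAAT stood in 18 of 19, or 94.7%, against 41.1%. Among the interferon response genes described below, TCACNCNA stood in 5 of 24 (20.8%), a share close to that of the cholesterol genes. CCAAT stood in 14 of those 24 (58.3%). A match is a description of letters, not a binding site. The windows of the DE genes for which one was at hand are printed whole, 5′ to 3′ on the gene's strand, with matches of TCACNCNA and CCAAT on either strand in capitals. They lie at chr8:64733529-64733828 (*Msmo1*, minus strand), chr5:4104648-4104947 (*Cyp51*, minus strand) and chr13:8885356-8885655 (*Idi1*, plus strand).
Msmo1: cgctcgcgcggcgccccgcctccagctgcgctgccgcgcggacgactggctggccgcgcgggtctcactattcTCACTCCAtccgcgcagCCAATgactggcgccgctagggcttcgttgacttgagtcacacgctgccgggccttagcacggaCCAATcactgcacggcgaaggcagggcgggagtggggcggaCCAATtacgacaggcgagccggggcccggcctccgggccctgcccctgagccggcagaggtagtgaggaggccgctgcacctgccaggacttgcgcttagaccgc
Cyp51: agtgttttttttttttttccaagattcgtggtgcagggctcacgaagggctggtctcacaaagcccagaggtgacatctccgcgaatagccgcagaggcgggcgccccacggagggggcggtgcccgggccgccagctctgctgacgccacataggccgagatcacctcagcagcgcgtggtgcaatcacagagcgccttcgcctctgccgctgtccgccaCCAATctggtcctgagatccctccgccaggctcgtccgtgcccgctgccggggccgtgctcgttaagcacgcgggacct
Idi1: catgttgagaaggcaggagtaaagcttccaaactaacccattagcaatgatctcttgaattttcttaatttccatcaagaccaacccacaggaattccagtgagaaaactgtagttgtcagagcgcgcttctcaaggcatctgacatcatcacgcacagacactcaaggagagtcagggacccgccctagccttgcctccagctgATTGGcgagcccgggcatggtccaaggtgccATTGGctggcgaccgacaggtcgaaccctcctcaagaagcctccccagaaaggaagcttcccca
*Msmo1* holds 1 match of TCACNCNA and 3 of CCAAT, *Cyp51* 1 of CCAAT alone and *Idi1* 2 of CCAAT alone. For comparison, 60 bases around the TCACNCNA match follow for *Srebf2* (chr15:82147081-82147140, plus strand) and *Hmgcs1* (chr13:119690188-119690247, plus strand), neither of which was DE.
Srebf2: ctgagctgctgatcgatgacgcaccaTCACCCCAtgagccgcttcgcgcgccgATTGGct
Hmgcs1: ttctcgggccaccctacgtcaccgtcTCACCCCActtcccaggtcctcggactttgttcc

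Liver on chow showed another pattern for these genes. The median log2 fold change of the list in chow liver was 0.19, where 4 of 27 genes were higher and 0 lower at an unadjusted p under 0.05. There *Stard4* had a log2 fold change of 0.29 ± 0.16 (SE), *Sqle* of 0.18 ± 0.32 and *Cyp51* of 0.27 ± 0.26. The difference between diets was tested as a genotype by diet interaction over 16 libraries. In edgeR, 0 of 14476 genes passed (0%). Before adjustment 928 had p under 0.05, and DESeq2 called 24 genes. Leaving out WT 2 of HFD liver gave 16 calls, leaving out chow WT 2 gave 15, and leaving out HFD KO 2 or chow WT 1 gave 1. *Stard4* had the smallest p of all genes (log2 difference -1.26 ± 0.22 SE, unadjusted p = 1.67e-05, adjusted p = 0.241). In the cholesterol list, 11 of 27 genes had an unadjusted interaction p under 0.05. The age of the chow mice is not given here, and its part in the difference between diets was not tested. Chow libraries were all on lane 3, apart from the HFD libraries. Ribosomal RNA on *CT010467.1* took 3.44% to 45.9% of their counts in KO and 0.0127% to 18.2% in WT, and its part in the chow values was not tested. With that share as a covariate, the interaction again called 0 genes, and 1327 had p under 0.05 before adjustment.

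Of the interferon response genes in the list used here, none was DE on HFD in the main test, but most had a lower level in KO. Type I and II interferons switch such genes on against viruses and bacteria, and the list does not hold all of them. Of 32 tested, 31 had a log2 fold change below 0, 23 were lower at an unadjusted p under 0.05, and in 13 the KO libraries were all below the WT libraries. The share lower, 23 of 32, stands beside 5.71% of all genes, and the share lower without overlap, 13 of 32, beside 3%. The median was -0.40. Over the alternative settings 0 to 10 members fell, 10 of them without a filter on low counts, 7 in DESeq2 and 3 without WT 2. The number lower at an unadjusted p under 0.05 ran from 11, in the fit of all male liver libraries, to 23. Without KO 3, 20 were lower at an unadjusted p under 0.05, and the median was -0.38. In chow liver the median was 0.04, and before adjustment 0 of the 32 had p under 0.05 in either direction, and 6 genes had an unadjusted interaction p under 0.05. The list members and their errors are plotted beside those of the cholesterol list.

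**Figure D3:**
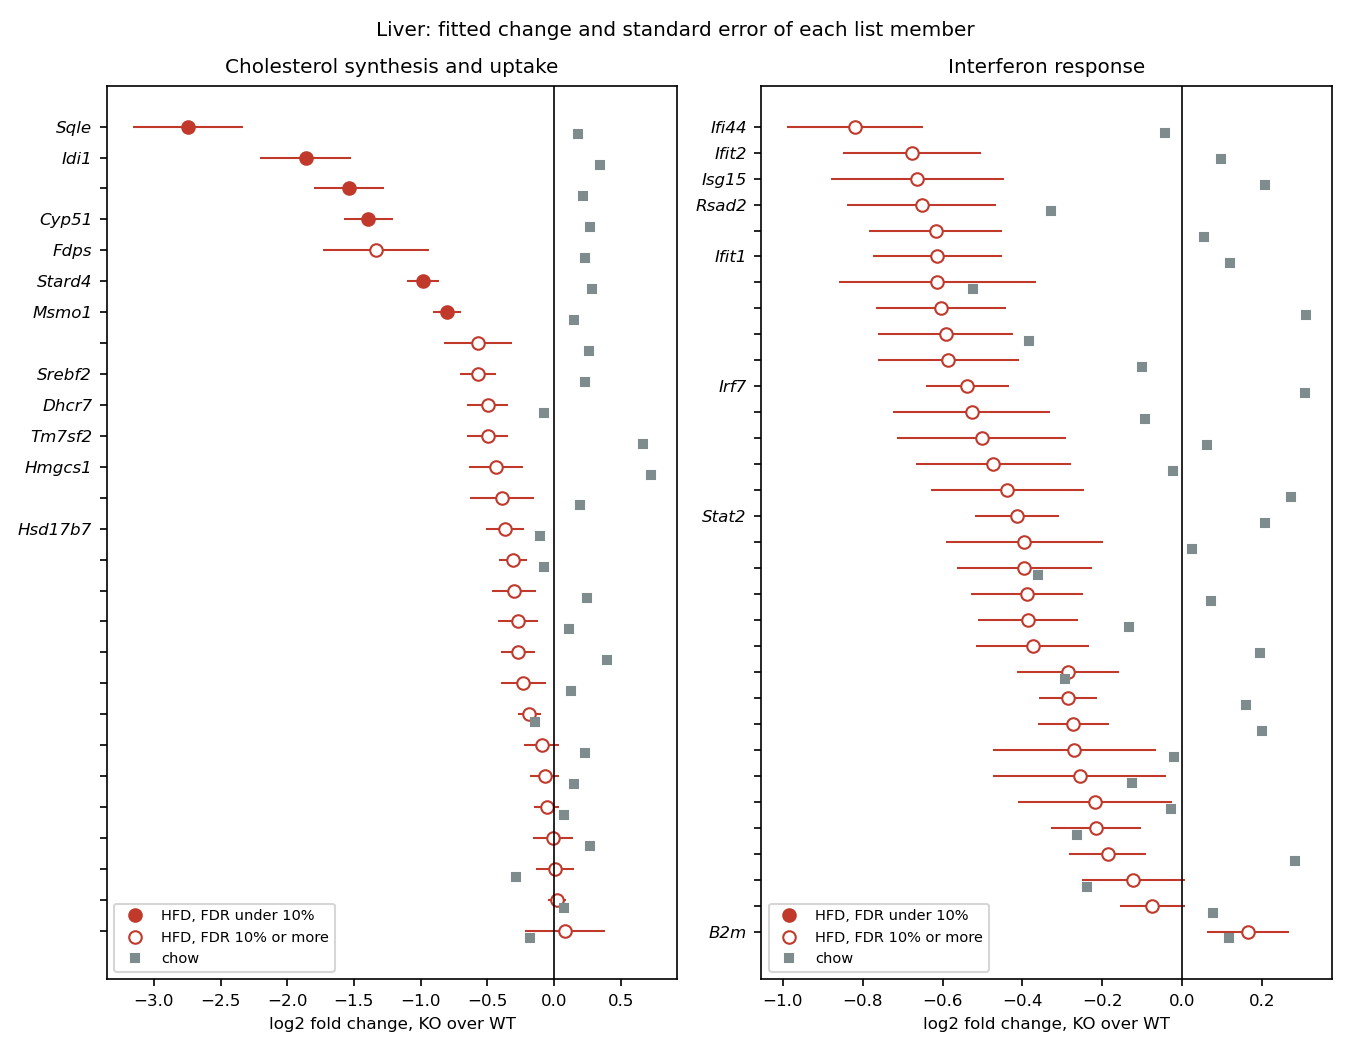
Log2 fold change (x axis, KO over WT) of each tested gene of the cholesterol and interferon lists in HFD liver, with standard errors as bars, and in chow liver (grey squares). On HFD, 31 of 32 interferon genes and 24 of 27 cholesterol genes lie below 0, and filled circles mark the 6 DE genes. Genes named in the text are labelled.

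*Irf7*, a transcription factor that amplifies the interferon response, had 19.8, 16.7, 13.2 and 20.5 CPM in KO 1 to KO 4 and 27.8, 26.8, 27.3 and 25.2 CPM in WT 1 to WT 4. The groups did not overlap. Its log2 fold change was -0.54 ± 0.10 (SE), and its adjusted p, 0.1 when rounded, did not pass. *Ifi44* was at 2.08 to 3.67 CPM in KO and 4.36 to 7.03 CPM in WT (log2 fold change -0.82 ± 0.17 SE, adjusted p = 0.126). The transducer *Stat2* had a log2 fold change of -0.41, and the antiviral effectors *Ifit1*, *Ifit2*, *Rsad2* and *Isg15* of -0.61, -0.68, -0.65 and -0.66. The exception above 0 was *B2m*, the light chain of MHC class I (0.17 ± 0.10 SE).

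Some immune genes outside that list were DE, and they are no part of its count. That no listed gene was DE therefore does not cover every gene that interferons switch on. *Zbp1*, a sensor of viral nucleic acid, had 5.73, 5.09, 9.02 and 5.21 CPM in KO and 9.80, 8.71, 9.84 and 10.8 CPM in WT, and KO 3 overlapped with WT. It fell by 0.82 ± 0.13 (log2, SE, adjusted p = 0.0544). *Ifi47*, an immunity-related GTPase, had 11.6, 12.4, 6.24 and 11.2 CPM in KO and 19.7, 16.3, 19.5 and 18.8 CPM in WT, without overlap (adjusted p = 0.0658). *H2-T24*, a non-classical MHC class I gene, had 2.08 to 3.90 CPM in KO and 5.40 to 8.13 CPM in WT (adjusted p = 0.0949, edgeR for these genes).

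Markers of immune and other non-hepatocyte cells differed in direction. Their counts stand beside 4.58% of all genes higher and 5.71% lower at an unadjusted p under 0.05. Of 10 Kupffer cell and macrophage markers, 9 had a log2 fold change below 0, with a median of -0.30 and 2 lower at an unadjusted p under 0.05, a number that was 5 without KO 1, 8 without WT 4 and 1 without KO 3. Their summed level was 203 to 285 CPM in KO and 199 to 360 CPM in WT. For 8 sinusoidal endothelial markers it was 198 to 253 CPM in KO and 248 to 277 CPM in WT, with 3 lower at an unadjusted p under 0.05, a number that was 1 without KO 3, KO 2 or WT 3. Of 10 markers of lipid-associated and recruited macrophages, 8 were above 0, with a median of 0.27 and 2 higher at an unadjusted p under 0.05, a number that was 0 without KO 3 or WT 1. Their summed level was 16.2 to 27.1 CPM in KO and 15.7 to 18.9 CPM in WT. All 6 erythroid markers were below 0, with a median of -0.42, and 0.01 without WT 2. Of 6 tested lymphocyte markers, 6 were below 0, and the T cell genes *Cd3d*, *Cd3e* and *Cd3g* had too few counts to be tested. In bulk tissue, fewer cells of a type and less RNA per cell cannot be told apart. The part of these cells in the interferon result was not tested.

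Interferon-stimulated genes carry response elements in which GAAA is repeated after a gap of 2 bases. Of 24 list genes with a RefSeq window, 12 held this repeat on either strand, or 50%, against 3.99% of all genes with a window and 2 of the 19 cholesterol genes (10.5%). The stretch around the first match is shown for those named above, with matches in capitals, 5′ to 3′ on the gene's strand, to show how the shared letters recur. They lie at chr4:156200867-156200916 (*Isg15*, minus), chr19:34640765-34640814 (*Ifit1*, plus), chr10:128270256-128270305 (*Stat2*, plus) and chr12:26456543-26456592 (*Rsad2*, minus).
Isg15: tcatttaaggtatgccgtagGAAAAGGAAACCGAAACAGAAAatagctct
Ifit1: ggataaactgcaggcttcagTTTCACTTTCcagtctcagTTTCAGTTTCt
Stat2: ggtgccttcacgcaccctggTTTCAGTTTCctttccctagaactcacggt
Rsad2: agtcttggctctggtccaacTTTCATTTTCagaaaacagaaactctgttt
The run in *Isg15* is 3 overlapping matches, and *Ifit1* holds 2 apart from each other.

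Of the genes that rose, *Sds*, which encodes serine dehydratase of gluconeogenesis from amino acids, was DE in both fits. It had 67.1, 68.5, 53.4 and 109 CPM in KO 1 to KO 4 and 31.7, 33.5, 30.9 and 36.0 CPM in WT 1 to WT 4. No KO library overlapped with WT, and the KO libraries varied more among themselves (74.4 ± 23.9 against 33.1 ± 2.28 CPM, SD, n = 4). The log2 fold change was 1.21 ± 0.17 (SE, adjusted p = 0.0237) and 1.31 without KO 3. On chow it was -0.67 ± 0.36 (SE). *Sds* was also the only DE gene in the lists of periportal genes, of gluconeogenesis, and of urea cycle and amino acid breakdown.

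Other genes of the periportal zone, where blood enters the lobule and ammonia is turned into urea, did not pass. Over the whole list, *Sds* included, 7 of 18 were higher and 0 lower at an unadjusted p under 0.05, with a median of 0.20. On chow the median was -0.35, and 8 of the 18 had an unadjusted interaction p under 0.05. *Arg1*, arginase of the urea cycle, had 528, 535, 534 and 666 CPM in KO and 377, 472, 444 and 408 CPM in WT. It did not overlap, and its adjusted p was 0.192. *Ass1* and *Asl*, the 2 enzymes before it in the cycle, had log2 fold changes of 0.45 and 0.34 (adjusted p = 0.262 and 0.312), and KO 3 overlapped with WT for both. In the longer list of urea cycle and amino acid breakdown, 10 of 37 were higher and 0 lower at an unadjusted p under 0.05, and 15 and 0 without KO 3. Of 23 pericentral genes, 5 were higher and 0 lower at an unadjusted p under 0.05, with a median of 0.19. Among all genes tested with the 8 libraries, 4.58% were higher and 5.71% lower at that threshold.

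In the list of lipid droplets and triglyceride turnover, 2 of 37 genes rose and none fell, beside 0.0636% and 0.127% of all genes. *Plin4* encodes a perilipin, a coat protein of lipid droplets. It had 51.2, 44.4, 68.0 and 61.3 CPM in KO and 31.5, 22.1, 27.9 and 34.1 CPM in WT, without overlap, and a log2 fold change of 0.92 ± 0.15 (SE, adjusted p = 0.0534). *Cd36*, the fatty acid translocase, had 260, 292, 332 and 253 CPM in KO and 187, 202, 173 and 158 CPM in WT. All KO libraries were above all WT libraries, with a log2 fold change of 0.65 ± 0.11 (SE, adjusted p = 0.057). Without KO 3, *Plin4* and *Cd36* no longer passed (adjusted p = 0.155 and 0.144, edgeR). *Cidea*, a droplet fusion protein, varied widely, with 1.25 to 17.9 CPM in KO and 0.324 to 1.99 CPM in WT (adjusted p = 0.174). The median of the list was 0.06.

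De novo lipogenesis, the making of fatty acids from sugar, had no DE gene. Of 23 tested, 6 were lower and 1 higher at an unadjusted p under 0.05, beside 5.71% and 4.58% of all genes. The median of the list was -0.16. *Fasn*, fatty acid synthase, had 52.1, 66.5, 95.1 and 46.1 CPM in KO and 109, 93.4, 86.9 and 86.1 CPM in WT. KO 3 lay among the WT libraries and the others lay below, and the adjusted p was 0.251 with KO 3 and 0.155 without it. *Elovl6*, which lengthens palmitate, had a log2 fold change of -0.63 ± 0.15 (SE, adjusted p = 0.144). For 28 PPARA target genes the median was -0.03, and for 28 genes of fatty acid oxidation and ketogenesis it was -0.03. On HFD, 1 of the 28 oxidation genes was lower and none higher at an unadjusted p under 0.05.

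Detoxification held 2 DE genes, both higher in KO. Of 38 cytochrome P450 genes of drug metabolism, 13 were higher and 0 lower at an unadjusted p under 0.05 (median 0.18). The shares of all genes were 4.58% higher and 5.71% lower. Among the 38, 1 rose. That gene, *Cyp3a59*, had 50.3, 51.0, 47.2 and 27.2 CPM in KO and 21.2, 22.7, 17.3 and 13.2 CPM in WT, without overlap. Its log2 fold change was 1.23 ± 0.21 (SE, adjusted p = 0.0577), and it did not pass without KO 3 (adjusted p = 0.163). Its relative *Cyp3a11*, the main drug-metabolising member of the subfamily, had 1004 to 2377 CPM in KO and 389 to 797 CPM in WT, but did not pass (log2 fold change 1.22 ± 0.27 SE, adjusted p = 0.13). Members of this family are alike in sequence, so reads may be split between them.

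Of 46 genes of phase II conjugation and glutathione, 14 were higher and 3 lower at an unadjusted p under 0.05, with a median of 0.15. The shares of all genes were 4.58% higher and 5.71% lower. *Gstm1*, a glutathione transferase, rose. It had 374, 462, 419 and 437 CPM in KO and 237, 321, 265 and 242 CPM in WT, without overlap (log2 fold change 0.67 ± 0.11 SE, adjusted p = 0.057). Without KO 3 it no longer passed, with an adjusted p of 0.155. *Srxn1*, which restores peroxiredoxins and is a target of NRF2, was at 36.8 to 41.1 CPM in KO and 28.3 to 31.8 CPM in WT (adjusted p = 0.115). On chow the list had a median of 0.15 as well, with 9 genes higher and 2 lower at an unadjusted p under 0.05.

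Many liver genes differ between male and female mice, set by pulses of growth hormone. Of 26 male-biased genes, none was DE and 5 were lower at an unadjusted p under 0.05, with a median of -0.41. Of 15 female-biased genes, none was DE and 5 were higher, with a median of 0.39. Among all genes tested, 5.71% were lower and 4.58% higher at that threshold. *Cyp4a12a*, male-biased, had 74.3, 109, 48.6 and 26.7 CPM in KO and 160, 226, 130 and 116 CPM in WT, without overlap (adjusted p = 0.223). *Cyp2b9*, female-biased, had 269, 186, 288 and 257 CPM in KO. In WT it had 23.6, 181, 52.2 and 55.4 CPM, and WT 2 was close to KO 2 (adjusted p = 0.225). *Hsd3b5*, male-biased, was at 2.31 to 17.9 CPM in KO and 8.33 to 49.4 CPM in WT, with large overlap. Over the alternative settings, the medians ranged from -0.72 to -0.27 for male-biased and from 0.06 to 0.69 for female-biased genes. The number of male-biased genes lower at an unadjusted p under 0.05 was 15 without KO 2, 10 without WT 2, 8 without WT 1, 3 without KO 4 and 2 without WT 3. The number of female-biased genes higher was 3 without KO 4, and 7 without KO 2 or WT 2. Over all alternative settings it ran from 1 to 7.

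**Figure D4:**
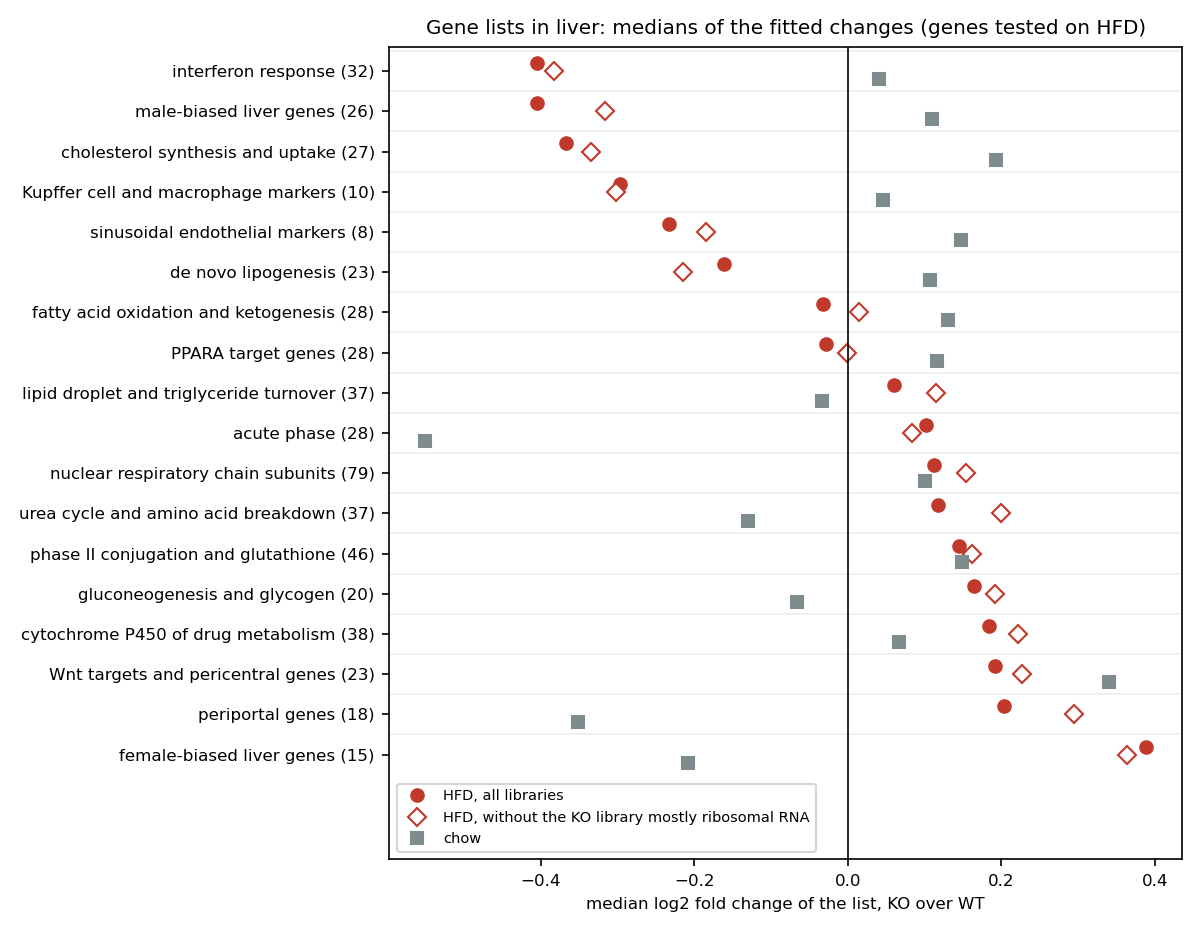
Median log2 fold change (x axis, KO over WT) of 18 gene lists in HFD liver with all libraries (filled circles), in HFD liver without KO 3 (open diamonds) and in chow liver (grey squares), with the number of genes tested on HFD in parentheses. The lists, of 50 in all, are those chosen for the text with their results known. Interferon, male-biased and cholesterol genes lie at -0.40, -0.41 and -0.37 on HFD and female-biased genes at 0.39.

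The DE gene with the smallest p was *Wdfy1*, which encodes an endosomal protein with a FYVE domain. It had 17.1, 24.3, 10.4 and 24.4 CPM in KO and 7.26, 7.18, 7.57 and 8.08 CPM in WT. All KO libraries were above all WT libraries, and the WT libraries were tight (7.52 ± 0.409 CPM against 19.1 ± 6.70 CPM, SD, n = 4). The log2 fold change was 1.46 ± 0.17 (SE, adjusted p = 0.0184), 1.55 without KO 3 and 0.83 ± 0.37 (SE) on chow. *Wdfy1* is also known as a gene whose level differs between C57BL/6 substrains. Of 6 such genes tested, it was the only DE gene. *Ide* was at 73.2 to 118 CPM in KO and 140 to 155 CPM in WT (adjusted p = 0.134). *Nnt*, which is in part deleted in C57BL/6J, had 100, 56.4, 56.9 and 106 CPM in KO and 43.2, 94.4, 48.3 and 47.0 CPM in WT, so that high and low libraries occurred in both groups. Whether the substrain differs between the groups was not tested.

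Among the genes that fell, *Ccnd1*, cyclin D1 of the entry into the cell cycle, had 11.1, 15.2, 18.04 and 13.9 CPM in KO and 28.6, 24.6, 25.1 and 21.1 CPM in WT, without overlap (log2 fold change -0.85 ± 0.13 SE, adjusted p = 0.046). *Igfbp2*, a secreted binding protein of insulin-like growth factors and the only DE gene in the lists of insulin signalling and of the growth hormone axis, had 83.4 to 96.4 CPM in KO and 109 to 182 CPM in WT (adjusted p = 0.084). In the list of 13 tested proliferation genes, 2 were lower and 0 higher at an unadjusted p under 0.05. The shares of all genes were 5.71% lower and 4.58% higher.

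Of the other DE genes only *Lgals1*, in the list of fibrosis and matrix, was in a list used here. *Tceal8*, a transcription elongation factor-like gene, had 18.1 to 24.3 CPM in KO and 7.72 to 12.8 CPM in WT (log2 fold change 0.95 ± 0.15 SE). *Pigp*, of GPI anchor synthesis, had 13.5 to 15.6 CPM in KO and 8.55 to 10.4 CPM in WT, and was DE in both fits. *Lgals1* encodes the lectin galectin-1 and had 26.6 to 36.8 CPM in KO and 15.6 to 22.9 CPM in WT (0.68 ± 0.13 SE). For these 3 genes the groups did not overlap.

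Lower in KO were *Pdia5*, a protein disulfide isomerase (10.1 to 14.96 CPM in KO, 20.3 to 22.5 CPM in WT), *Fbf1*, of cilia (9.16 to 14.4 and 17.6 to 26.3 CPM), *Slc35d2*, a nucleotide sugar transporter (19.98 to 25.6 and 33.0 to 52.2 CPM), and *Tbc1d30*, a Rab GTPase-activating protein (3.46 to 6.24 and 8.39 to 12.4 CPM). None of the 4 overlapped. *AK157302* was near 0 in KO, at 0 to 0.187 CPM, against 0.762 to 2.38 CPM in WT. The unnamed transcripts *Gm15611* and *Gm38302* completed the 18 (0.688 to 1.69 against 2.35 to 4.12 CPM, and 1.20 to 1.47 against 2.34 to 3.73 CPM). Of the 27 DE genes, 10 overlap a gene annotated on the other strand, among them *Cyp51*, *Idi1*, *Plin4* and *Wdfy1*. Which strand the table counts is not given in the sources used here, so reads of the partner cannot be told apart.

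The liver on chow gave no DE gene in the main test: 0 of 13407 (0%) passed in edgeR. Before adjustment 804 had p under 0.05 there, and DESeq2 called 12. Of the 27 genes DE on HFD, 14 had the same direction on chow, and 2 of them, *Wdfy1* and *Fbf1*, an unadjusted p under 0.05 there. *Fbf1* had a log2 fold change of -1.17 ± 0.27 (SE) on chow and -0.88 ± 0.16 on HFD. With *Stard4*, the genes with the 3 smallest interaction p-values in each direction were *Slco1a4*, a transporter of organic anions (1.58 ± 0.31 SE, unadjusted p = 6.29e-05), *Sqle* (-2.91, 8.57e-05), *Zfp9* (1.57, 9.55e-05), *Il1a* (-1.37, 0.000141) and *Bhlhb9* (1.28, 0.000143), all with adjusted p-values of 0.252. Acute phase genes, which the liver makes in inflammation, had a median of 0.10 on HFD and of -0.55 on chow, where 15 of 28 were lower at an unadjusted p under 0.05. For 11 of these 28 genes the interaction had an unadjusted p under 0.05.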

How the data were processed

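Liver RNA was sequenced in 8 libraries on HFD (4 KO, 4 WT) and 8 on chow. The authors aligned reads with STAR (2.5.3a per the submitters' notes) to GRCm38, annotated with Gencode, and deposited raw counts per gene, not normalized. Symbols and positions came from GENCODE, matched by Ensembl identifier (48435 of 48795 genes). Counts per library ran from 4959783 to 28672651. In R 4.3.3, edgeR 4.0.16 gave TMM factors, filterByExpr and quasi-likelihood tests of KO against WT, with Benjamini-Hochberg adjustment and an FDR of 10%. SE is the log2 fold change over the root of F. CPM used TMM library sizes. Tests were checked on simulated data. Other fits used limma 3.58.1, DESeq2 1.42.0 and sva 3.50.0. Named genes were *Fam13a* and *CT010467.1*, up to 10 DE genes without overlap per direction by p, up to 5 more per direction without KO 3, 3 per direction of the interaction, and from each list up to 5 DE genes or, where none passed, the 2 with the smallest p, besides cell type markers. Chosen after their values were seen were the other DE genes (*Slc35d2*, *Idi1*, *Tbc1d30*, *H2-T24*, *Gm15611*, *Gm38302*) and the other members described of each list, such as *Srebf2*, *Fdps*, *Stat2*, *Isg15*, *Arg1*, *Fasn*, *Cyp3a11*, *Hsd3b5*, *Ide* and *Nnt*. Some members of the lists are counted but not reported here by name. The libraries, members and lists were chosen with earlier results of these data known.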

Additional observations from a re-analysis of the deposited data

Results flagged for a closer look

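Dixon's test on groups of 4, over 284 groups of library measures and named genes, picked out 28 values, and chance gives about 1 in 20. KO 3 stood out 8 times and WT 1 8 times. KO 3 was low for its counts (4959783) and high for its share of ribosomal RNA (75.4%), and WT 1 was high for that share (3.43%). In CPM, KO 3 was high for *Zbp1* (9.02), *Fdps* (2.77), *Cyp2a4* (13.9) and *Spp1* (20.8), and low for *Stat2* (22.9) and *Rps16* (9.02). WT 1 was high for *Msmo1* (38.2), *Sqle* (9.12), *Pdia5* (22.5), *Usp18* (22.6) and *Tm7sf2* (40.3), and low for *Slco1a4* (55.4) and *Ciart* (1.55). KO 4 was high for *Arg1* (666), *Tat* (862) and *Ciart* (24.1), and low for *Cyp3a59* (27.2). KO 1 was high for *Fam13a* (17.3) and low for *Acox2* (141). KO 2 was high for *Gm15611* (1.69) and *Cidea* (17.9). In WT, *Cidea* was high in WT 4 (1.99), *Nnt* was high in WT 2 (94.4), and *Col3a1* (18.6) and *Col1a2* (7.66) were low in WT 3. The causes were not tested.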

How the results depend on the processing

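The number of DE genes depended on the setting, and the directions of the genes named mostly did not. With all libraries (27 DE genes), it was 352 without a filter on low counts, 164 in DESeq2, 67 in the robust fit and 44 on lane 6 only. It was 16 in limma-voom, 11 in the bias-corrected fit, 10 with at least 10 counts in every library, 10 with 1 surrogate variable, 9 with all male liver libraries in 4 groups and 10 at an FDR of 5%. Leaving out 1 library gave 6 to 207. Without KO 3 (12 DE genes), it was 312 without a filter, 249 in DESeq2, 19 in the robust fit, 20 on lane 6 only and 4 in the 4-group fit, and 1 to 102 with a further library left out. The interaction (0 genes) gave 43 without a filter, 24 in DESeq2 and 0 to 16 with 1 library left out, and chow liver (0 genes) gave 12 in DESeq2, a fit added after seeing the data. *Fam13a* passed without a filter (-0.76, adjusted p = 0.0019), in DESeq2 (-0.77, adjusted p = 0.00252), in the robust fit (-0.76, adjusted p = 0.0602) and with ribosomal RNA loci left out (-0.77, adjusted p = 0.0946). With 1 library left out it ranged from -0.96 to -0.68, and it passed without KO 1 (-0.96, adjusted p = 0.053) and without WT 2 (-0.71, adjusted p = 0.0772). The log2 fold change turned for *CT010467.1* (-5.14 with a surrogate variable, -4.88 without KO 3), *Epcam* (-0.021 without KO 4, and -0.021 to 0.766 over all left-out libraries) and *S100a9* (0.047 with a surrogate variable, 0.09 without KO 2, 0.16 without WT 2, and -0.37 to 0.16 over all left-out libraries). The causes were not tested. No paired analysis was possible because the labels number no replicates. KO 3 had 1211177 counts outside ribosomal RNA, which limits its genes of low level.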
